A study of Mus musculus with 6 samples.

Results

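The 10 nuclear maternal-effect genes followed here were Npm2, Bnc1, Sebox, Smarca4, Trim24, Trim28, Yap1, Ctcf, Hsf1 and Pms2. They were taken by gene name from the Ensembl rows of the deposited matrix, in which each had 1 row among 60193 genes, 53700 of them with Ensembl identifiers. The oocytes came from ICR mice, an outbred stock, aged 42 to 45 weeks, a reproductively advanced age. The 3 IVM samples were cumulus-free oocytes of mice primed with pregnant mare's serum gonadotropin (PMSG) that matured in M16 medium for 12 h. The 3 IVO samples were oocytes of mice given PMSG and then human chorionic gonadotropin (hCG), ovulated and collected from the oviduct 14 h after the hCG injection. Every sample was a pool of 20 metaphase II (MII) oocytes of 3 mice. The cumulus cells of the IVO oocytes were removed after collection with hyaluronidase, those of the IVM oocytes before culture with a pipette. The groups differed at the same time in hormone treatment, medium and the stage and means of cumulus removal. These cannot be told apart. All values are FPKM, the fragments on a gene per kilobase of transcript, scaled to the size of the library. In such pools a change of RNA in each oocyte and a change in the mix of oocytes, or of other cells among them, cannot be told apart.

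A maternal-effect gene is one whose product, laid down in the oocyte, is needed by the embryo whatever the embryo's own genotype. Transcription is silent in the full-grown oocyte, and the mRNAs and proteins stored during growth have to carry the egg through fertilization and the first divisions until the embryonic genome is switched on. The genes described here act in the nucleus. Npm2 encodes nucleoplasmin 2, a histone chaperone of the oocyte, Smarca4 the ATPase BRG1 of the BAF chromatin remodelling complex, Trim28 and Trim24 corepressors of chromatin, and Ctcf a zinc finger protein that organizes chromatin loops. Bnc1, Sebox and Hsf1 encode transcription factors, Yap1 encodes the transcriptional coactivator at the end of the Hippo pathway, and Pms2 encodes a subunit of a DNA mismatch repair complex.

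The RNA of these genes fell into a high and a low class that did not touch. Trim28, Npm2 and Smarca4 stood at 504.7 FPKM or more in all 6 samples, and the other 7 genes lay between 4.62 and 69.0 FPKM. Of the 10 genes, 1 passed the test between the groups: Trim28 was lower in IVO than in IVM oocytes, at 690 ± 190.2 against 1204 ± 73.8 FPKM (mean ± SD, n = 3 each). Npm2, at 1029 ± 16.2 FPKM in IVO and 1044 ± 66.4 FPKM in IVM (SD, n = 3), differed by less than the spread between replicates. The plot of FPKM by pool shows both classes.

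**Figure D1:**
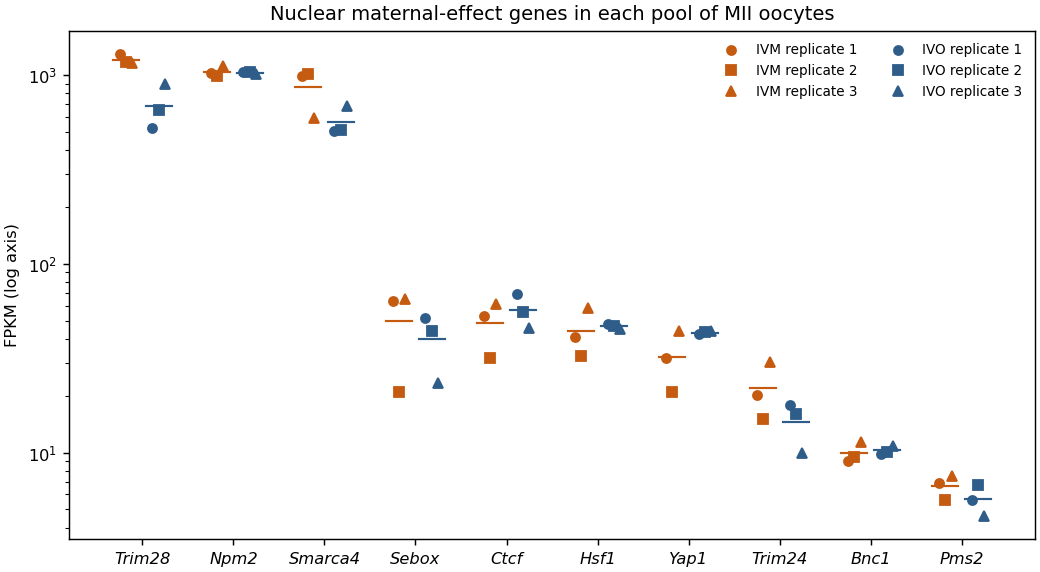
FPKM of the 10 genes on a log axis, ordered by their mean in IVM, with 1 point for each pool of oocytes and a line at the mean of each group of 3. Trim28 is the gene whose IVM points (1153 to 1288 FPKM) all lie above its IVO points (522 to 896 FPKM), and a wide gap separates the 3 abundant genes from the other 7.

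IVO was set against IVM with limma, for log2(FPKM + 1), in the 18818 genes whose mean reached 1 FPKM, which included all 10, and log2FC is the IVO mean minus the IVM mean on that scale. At an adjusted p-value under 0.05, 1 of the 10 genes was lower in IVO, where 21.5% of all tested genes were, and 0 were higher, where 1.87% were. The counts were also 1 and 0 at an unadjusted p-value under 0.05, where 31.4% of all genes were lower and 5.56% higher. None of the 10 was a DEG, which additionally needs |log2FC| ≥ 1 (17.9% of all genes lower, 0.606% higher). The 3 IVO values lay below the 3 IVM values in 1 of the 10 genes (32.6% of all genes) and above them in 0 (9.62%). Whether these shares differ from the background was not tested. The median log2FC was -0.11 over the 10 genes and -0.30 over all tested genes. Of the 18818 tested genes, 13154 had Ensembl identifiers, as all 10 do, and the others were assembled loci. Over the 13154 Ensembl genes the median was -0.18, while the shares above are over all 18818. The result depended on the scale of the libraries: the median over all genes moved to -0.03 with median-ratio scaling, which centers the typical gene, and to 0.17 with quantile normalization, and the genes passing the test went from 4050 lower and 351 higher to 2418 and 1356 and to 2019 and 2787.

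The 8 oocyte markers, among them Gdf9, Bmp15 and the zona pellucida genes, summed to 14338 to 17145 FPKM in IVM and 13841 to 17180 FPKM in IVO, most of it from Oosp1. Singly, 5 of the 8 were lower in IVO (Zp1, Zp2, Zp3, Bmp15 and Nlrp5), while all 8 were present in every sample. The 17 cumulus and granulosa cell markers summed to 32.4 to 63.9 FPKM in IVM and 37.7 to 60.9 FPKM in IVO. Only 4 of them (Amhr2, Fshr, Cyp19a1 and Kitl) had a mean of at least 1 FPKM, and these 4 overlapped between the groups, while Amh was listed at 0 in every sample. Has2, Ptx3, Tnfaip6, Fst and Gja1 are expressed by expanding cumulus cells. They had 0 to 0.14 FPKM in IVM and 0.07 to 1.73 FPKM in IVO. Each was higher in every IVO pool than in every IVM pool, as 9.62% of all tested genes were. They were named after their values were seen. Their IVM values and some IVO values lay under the 0.195 to 0.232 FPKM that 3 fragments give on a transcript of 1000 bases. Their means were under the filter of 1 FPKM, and their part in the differences described here was not tested. Of the same list, Ptgs2 and Vcan overlapped, and Inha, Inhba, Foxl2, Cyp11a1 and Star had lower means in IVO. The 10 oviduct, stroma and blood markers summed to 2.76 to 3.88 FPKM in IVM and 3.41 to 10.9 FPKM in IVO. From the steps between low FPKM values, 18000000 to 18200000 fragments were inferred for each IVO library and up to 19000000 for an IVM library, which puts 434 to 119508 fragments behind each value of the 10 genes. Counting error alone was then at most 4.80% of a value, but amplified fragments are not independent molecules. The inferred mean fragment length was 191 to 216 bases in IVM and 247 to 271 bases in IVO, and its part in the differences between the groups was not tested beyond the removal of the trend with transcript length. Since the cDNA kit does not mark strand, fragments of Trim28 and of Chmp2a (9.66 to 15.6 FPKM), which lies opposite it, cannot be told apart where their exons overlap, and the same holds for Hsf1 and Dgat1 (0.46 to 2.04 FPKM).

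RefSeq promoters (GRCm38.p6) were at hand for 8 of the genes, and their places in GRCm39 were found by exact match. In the 250 bases before the start, Sebox had 3 CpG dinucleotides and 52.4% G and C, which is also the median of all 32851 promoters (median of 6 CpG). Yap1 had 44 CpG, Ctcf 40, Bnc1 39, Smarca4 25, Trim28 17 and Pms2 14, and Trim24 had 27 at its first start and 1 at a second start. The GC box GGGCGG, read on both strands, occurred in 7 of the 8 genes and in 32.7% of all promoters, and Sebox was the gene without it. The E-box CANNTG occurred in 4 of the 8 (66.2% of all) and the TEAD motif GGAATG in 1, Yap1 (12.6%). The NOBOX element TAATTG (7.2%), the heat shock motif GAANNTTC (6.7%) and the TATA box TATAAA (12.4%) were found in none of the 8. A match is a string of letters, not a bound site, and matches of different motifs were counted apart even where they shared letters. The RefSeq start of Trim28 lies 25038 bases past the first base that GENCODE gives to the gene. For Bnc1, Ctcf and Pms2 the distance was 294, 248 and 407 bases, and for the second start of Trim24 29778 bases. The 250 bases of these starts thus lie wholly or almost wholly inside the annotated gene. For the other starts the distance was 64 to 102 bases. The 120 bases nearest the start that lie in no annotated exon are shown for the gene that changed, for Smarca4 as an abundant gene with a CpG-rich promoter and for Sebox as the CpG-poor one. They lie at chr7:12757928-12758047, chr9:21527278-21527397 and chr11:78394153-78394272 of GRCm39, all on the plus strand, with GC boxes (GGGCGG or CCGCCC) and E-boxes in capitals.
Trim28: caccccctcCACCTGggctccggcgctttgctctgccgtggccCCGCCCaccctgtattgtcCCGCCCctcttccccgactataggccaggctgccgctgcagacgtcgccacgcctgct
Smarca4: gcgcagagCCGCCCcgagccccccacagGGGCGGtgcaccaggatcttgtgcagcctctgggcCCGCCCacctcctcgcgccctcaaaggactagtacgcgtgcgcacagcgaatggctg
Sebox: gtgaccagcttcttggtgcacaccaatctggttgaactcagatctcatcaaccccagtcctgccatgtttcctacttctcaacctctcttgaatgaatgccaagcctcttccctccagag

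Of the chromatin genes, Npm2 (ENSMUSG00000047911, chromosome 14 from 70884736 to 70896684) was the most even. Nucleoplasmin 2 is needed for the nuclear organization of the oocyte and for the remodelling of sperm chromatin after fertilization. Npm2 stood at 1020, 992 and 1119 FPKM in IVM pools 1 to 3 and at 1039, 1037 and 1010 FPKM in IVO pools 1 to 3. The IVO values lay inside the range of the IVM values. The log2FC was -0.02 (95% interval -0.32 to 0.29, adjusted p = 0.935 from limma), and it turned positive, to 0.31, with median-ratio scaling. Of 10 tested genes for nucleoplasmins, histone chaperones and the oocyte linker histone, 0 passed as lower (21.5% of all genes) or higher (1.87%). At an unadjusted p-value under 0.05, 1 of them was lower and 0 were higher, while under median-ratio scaling 3 passed as higher. The paralog Npm1 had 1349 ± 312.6 FPKM in IVM and 1460 ± 79.0 FPKM in IVO, and Npm3 had 4.39 ± 1.74 and 4.78 ± 0.34 FPKM (SD, n = 3). Neither passed the test (adjusted p = 0.643 and 0.739 from limma).

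Trim28 (ENSMUSG00000005566, chromosome 7 from 12733041 to 12764976) encodes the corepressor KAP1, which KRAB zinc finger proteins recruit to silence retrotransposons and to protect imprinted loci in the early embryo. Trim28 stood at 1288, 1170 and 1153 FPKM in IVM pools 1 to 3 and at 522, 652 and 896 FPKM in IVO pools 1 to 3. All IVO samples lay below all IVM samples, and the IVO samples were spread more widely than the IVM samples. The log2FC was -0.84 (standard error, SE, 0.21, 95% interval -1.34 to -0.33, adjusted p = 0.0302 from limma), and the mean in IVO was 0.573 of that in IVM. The ratio of Trim28 to Npm2 inside each library, which scaling by 1 factor per library cannot move, was 1.26, 1.18 and 1.03 in IVM and 0.502, 0.629 and 0.888 in IVO, again without overlap. The ratio of Trim28 to Smarca4 did overlap, at 1.15 to 1.95 in IVM and 1.03 to 1.305 in IVO. A change of either gene moves such a ratio. The log2FC was negative in all 16 alternative analyses, from -1.04 to -0.40, but passed the test in only 4 of them. It was -0.51 with median-ratio scaling (adjusted p = 0.169) and -0.40 with quantile normalization (adjusted p = 0.15). Leaving out IVM replicate 1, 2 or 3 or IVO replicate 1 or 2 ended the call, with adjusted p-values of 0.0867, 0.0732, 0.0678, 0.0800 and 0.0852 from limma, and leaving out IVO replicate 3 kept it at 0.0134, with a log2FC of -1.04.

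Trim24 (ENSMUSG00000029833, chromosome 6 from 37847644 to 37945380), the relative of Trim28 that reads modified histone H3 tails, was far less abundant. Trim24 stood at 20.3, 15.1 and 30.3 FPKM in IVM pools 1 to 3 and at 17.8, 16.1 and 9.91 FPKM in IVO pools 1 to 3. The groups overlapped, with the highest value in IVM replicate 3 and the lowest in IVO replicate 3. The log2FC was -0.54 (95% interval -1.297 to 0.22, adjusted p = 0.274 from limma). Of 11 tested genes for TRIM28 relatives, HP1 proteins and their silencing partners, 2 fell in IVO (21.5% of all genes) and 0 rose (1.87%). Those that fell were Trim28 and Cbx5. Cbx5 encodes HP1 alpha, which binds TRIM28 and methylated histone H3. It had 50.4 ± 3.48 FPKM in IVM and 26.1 ± 4.85 FPKM in IVO (SD, n = 3), a log2FC of -0.94 (adjusted p = 0.0173 from limma), which was -0.62 with median-ratio scaling and no longer passed (adjusted p = 0.0884). The call also ended without IVM replicate 1 (0.0513) and without IVO replicate 1 (0.0585). With median-ratio scaling 0 genes of the list were lower. Trim33, a further gene of the family, had 194 ± 67.2 and 126 ± 25.3 FPKM and did not pass (adjusted p = 0.197 from limma). The median log2FC of the list was -0.21.

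Smarca4 (ENSMUSG00000032187, chromosome 9 from 21527398 to 21615526) encodes BRG1, whose maternal store is needed for genome activation in the mouse embryo. Smarca4 stood at 988, 1016 and 590 FPKM in IVM pools 1 to 3 and at 505, 510 and 687 FPKM in IVO pools 1 to 3. IVM replicate 3 lay inside the IVO range, and the other 2 IVM samples lay above every IVO sample. The log2FC was -0.58 (SE 0.25, 95% interval -1.18 to 0.014, adjusted p = 0.144 from limma). Without IVM replicate 3 the log2FC was -0.83 and passed the test (adjusted p = 0.0358 from limma). This was the only 1 of the 16 alternative analyses in which it passed. The log2FC was -0.255 with median-ratio scaling (adjusted p = 0.551 from limma) and -0.096 with quantile normalization (adjusted p = 0.737). Relative to Npm2 in the same library, Smarca4 stood at 0.969, 1.02 and 0.528 in IVM and at 0.486, 0.492 and 0.680 in IVO, and the groups overlapped. Smarca4 and Trim28 shared their lowest IVM pool (replicate 3) and the order of their IVO pools. The ratio of Trim28 to Smarca4 was highest in IVM replicate 3, at 1.95, against 1.03 to 1.31 in the other 5 samples.

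Of the BAF and PBAF subunit genes, 17 of 23 were tested. In IVO 2 of them fell and 1 rose, where 21.5% and 1.87% of all tested genes did. Bcl7c, an accessory subunit, fell from 687 ± 60.4 to 433 ± 6.44 FPKM (SD, n = 3), with a log2FC of -0.66 (adjusted p = 0.0169 from limma). The core subunit gene Smarcc1 fell from 530 ± 74.8 to 344 ± 38.8 FPKM, a log2FC of -0.62 (adjusted p = 0.0429). Arid1a, whose protein defines the canonical BAF complex, rose from 105 ± 12.3 to 164 ± 15.3 FPKM, a log2FC of 0.65 (adjusted p = 0.0355). Without IVM replicate 3 all 3 still passed, but leaving out any other sample ended the calls of Arid1a (adjusted p from 0.0573 to 0.122) and Smarcc1 (0.0686 to 0.132), and that of Bcl7c ended without IVM replicate 1 (0.0507), IVO replicate 1 (0.0561) or IVO replicate 2 (0.0621). With median-ratio scaling 0 of the genes were lower and 3 higher. The other ATPase gene, Smarca2, had 152 ± 46.5 FPKM in IVM and 158 ± 34.0 FPKM in IVO and did not pass (adjusted p = 0.871). The median log2FC of the list was -0.10.

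Ctcf (ENSMUSG00000005698, chromosome 8 from 106362922 to 106409564) stood at 52.9, 31.7 and 61.2 FPKM in IVM pools 1 to 3 and at 69.0, 55.9 and 45.5 FPKM in IVO pools 1 to 3. The groups overlapped, and IVM replicate 2 held the lowest value. The log2FC was 0.25 (95% interval -0.43 to 0.94, adjusted p = 0.579 from limma). CTCF stops the cohesin ring as it extrudes loops of chromatin. Of 11 tested genes for CTCF, cohesin and its loader and release factors, 0 passed as lower (21.5% of all genes) or higher (1.87%). At an unadjusted p-value under 0.05 from limma, 1 was lower and 0 were higher. Under median-ratio scaling 1 passed as higher, and without IVO replicate 3 1 passed as lower. Their median log2FC was -0.06. Ctcfl, the germline paralog of Ctcf, was at most 0.05 FPKM in any sample, which is under the 0.195 to 0.232 FPKM that 3 fragments give on a transcript of 1000 bases.

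Among the transcription factors, Bnc1 (ENSMUSG00000025105, chromosome 7 from 81616401 to 81642341) encodes basonuclin 1, a zinc finger protein of germ cells and basal keratinocytes. Bnc1 stood at 9.03, 9.45 and 11.4 FPKM in IVM pools 1 to 3 and at 9.84, 10.1 and 10.9 FPKM in IVO pools 1 to 3. All IVO values lay inside the IVM range. The log2FC was 0.05 (95% interval -0.40 to 0.50, adjusted p = 0.884 from limma). The paralog Bnc2 had 20.6 ± 5.49 FPKM in IVM and 20.9 ± 2.17 FPKM in IVO (SD, n = 3, adjusted p = 0.910 from limma), and its pools were spread more widely than those of Bnc1 in both groups.

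Sebox (ENSMUSG00000001103, chromosome 11 from 78394273 to 78395907), an oocyte homeobox gene, had the widest spread of the 10. Sebox stood at 63.6, 21.0 and 64.8 FPKM in IVM pools 1 to 3 and at 51.7, 44.3 and 23.4 FPKM in IVO pools 1 to 3. One low sample stood in each group, IVM replicate 2 and IVO replicate 3, so that the difference could not be measured well. The log2FC was -0.23 with a 95% interval from -1.38 to 0.93 (adjusted p = 0.778 from limma). Of 11 tested genes for transcription factors of the oocyte, 1 fell in IVO (21.5% of all tested genes) and 0 rose (1.87%). Of the list, 1 rose without IVO replicate 3, with median-ratio scaling and with a minimum of 5 FPKM. The count was also 1 with the length trend removed and with Ensembl genes only, and 2 with quantile normalization. The gene that fell was Figla, a regulator of the zona pellucida genes, which had 17.9, 6.61 and 8.61 FPKM in the IVM pools against 1.33, 2.08 and 1.83 FPKM in the IVO pools. Its log2FC was -2.03 (SE 0.36, adjusted p = 0.00896 from limma). The call of Figla ended with the length trend removed under the replicate block (adjusted p = 0.0816 from limma).

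Hsf1 (ENSMUSG00000022556, chromosome 15 from 76361558 to 76388138) encodes the master regulator of the heat shock response, which also drives chaperone genes in the unstressed oocyte. Hsf1 stood at 40.8, 32.5 and 58.5 FPKM in IVM pools 1 to 3 and at 47.9, 46.9 and 45.3 FPKM in IVO pools 1 to 3. The IVO samples lay close together inside the range of the IVM samples. The log2FC was 0.13 (95% interval -0.44 to 0.69, adjusted p = 0.747 from limma). Of the heat shock factors and HSF1 target chaperones, 9 of 15 were tested, with a median log2FC of 0.20. Of these, 0 passed as lower (21.5% of all genes) or higher (1.87%), also at an unadjusted p-value under 0.05. With median-ratio scaling 1 passed as higher and with quantile normalization 2. Hsp90aa1, an HSF1 target, had 4366 to 6861 FPKM in IVM and 6900 to 8355 FPKM in IVO. It did not pass (adjusted p = 0.167 from limma). Its groups did not overlap, as in 9.62% of all tested genes with IVO above. Of the other tested chaperones, Hspa8 (log2FC -0.51) and Dnajb1 (-0.64) were lower. Hspb1 (0.57) and Hsph1 (0.20) were higher, and Hsp90ab1 (0.0025) was nearly level. These genes were named after their values were seen. The paralog Hsf2 was at 0.45 to 1.29 FPKM, too low to be tested.

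Yap1 (ENSMUSG00000053110, chromosome 9 from 7932000 to 8004661) had the most positive log2FC of the 10 genes. Yap1 stood at 31.8, 20.9 and 44.1 FPKM in IVM pools 1 to 3 and at 42.2, 43.3 and 44.3 FPKM in IVO pools 1 to 3. The IVO samples were nearly equal, and IVM replicate 3 lay among them while the other 2 IVM samples lay below. The log2FC was 0.47 (SE 0.28, 95% interval -0.18 to 1.13, adjusted p = 0.267 from limma). It was positive in all 16 alternative analyses, from 0.20 without IVM replicate 2 to 0.95 with quantile normalization, and passed the test in the latter alone (adjusted p = 0.0431).

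YAP1 and its paralog TAZ have no DNA-binding domain and reach their targets through TEAD proteins, while the kinases STK3, STK4, LATS1 and LATS2 with their MOB1 cofactors keep them in the cytoplasm. Of 15 tested Hippo genes, 3 fell and 1 rose in IVO, where 21.5% and 1.87% of all tested genes did. Tead2 had 32.1, 45.8 and 40.7 FPKM in the IVM pools against 2.82, 1.22 and 1.87 FPKM in the IVO pools, a log2FC of -3.79 (SE 0.27, adjusted p = 6.53e-04 from limma). Tead1, the most abundant gene of the list, had 1048, 752 and 561 FPKM in IVM and 64.5, 138 and 225 FPKM in IVO, a log2FC of -2.58 (SE 0.45, adjusted p = 0.00863). Wwtr1, which encodes TAZ, fell from 35.0 ± 6.56 to 13.8 ± 0.47 FPKM (SD, n = 3), a log2FC of -1.27 (adjusted p = 0.00635). All 3 stayed negative and past the test under median-ratio scaling as well as after quantile normalization. With the length trend removed under the replicate block, Tead2 still passed, and the calls of Tead1 (adjusted p = 0.0716) and Wwtr1 (0.0605) ended. Mob1b rose from 7.87 ± 2.21 to 14.5 ± 0.75 FPKM, a log2FC of 0.83 (adjusted p = 0.0391), a call that ended without IVM replicate 1 or 2 or any of the 3 IVO samples (adjusted p from 0.0914 to 0.111). With median-ratio scaling 3 genes of the list were higher and with quantile normalization 6. Lats2 had 114 ± 31.4 FPKM in IVM and 60.2 ± 25.8 FPKM in IVO and did not pass (adjusted p = 0.0898), and Tead4 was listed at 0 in every sample. These last 2 genes were named after their values were seen. The median log2FC of the list was 0.11, so most of its genes did not follow the 3 that fell.

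**Figure D2:**
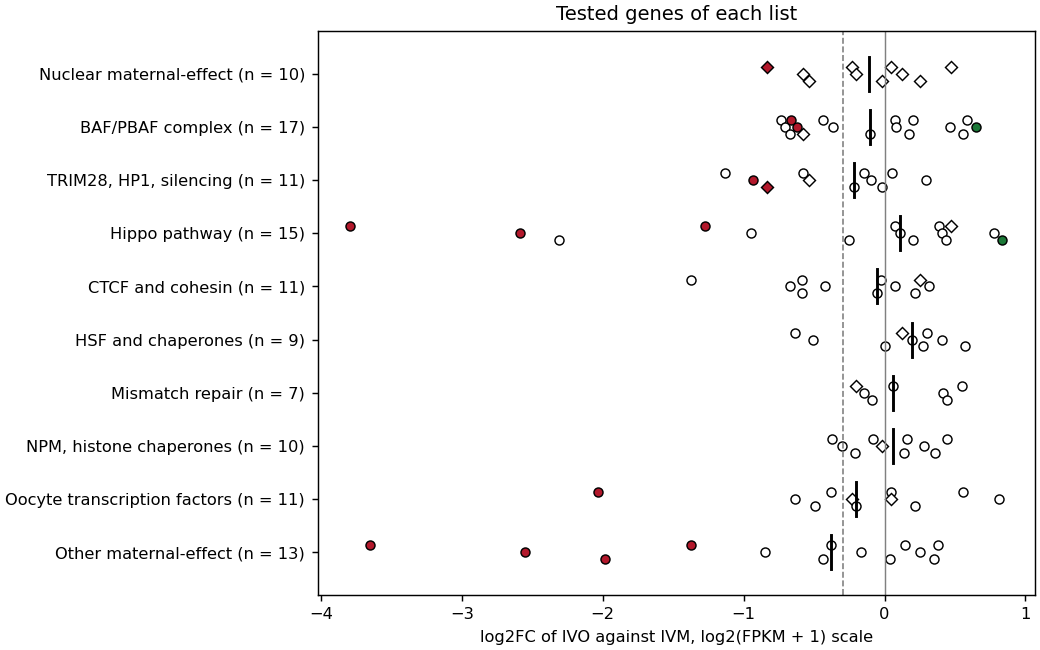
The log2FC of IVO against IVM for every tested gene of the 10 lists named on the axis, which leave out the cell type markers, with diamonds for the 10 nuclear maternal-effect genes, filled symbols for genes with an adjusted p-value under 0.05, a bar at the median of each list and a dashed line at the median of all tested genes (-0.30). The filled points farthest to the left among these lists are Tead2 (-3.79) and Tead1 (-2.58) in the Hippo list and Khdc3 (-3.65) and Tle6 (-2.55) among the other maternal-effect genes, and the 10 diamonds of the top line lie between -0.84 and 0.47.

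Pms2 (ENSMUSG00000079109, chromosome 5 from 143846412 to 143870786) was the least abundant of the 10. Its protein nicks the new DNA strand in mismatch repair. Pms2 stood at 6.86, 5.61 and 7.47 FPKM in IVM pools 1 to 3 and at 5.61, 6.74 and 4.62 FPKM in IVO pools 1 to 3. The groups overlapped. The log2FC was -0.20 (95% interval -0.73 to 0.32, adjusted p = 0.555 from limma), and it turned positive with median-ratio scaling (0.075) and after quantile normalization (0.28). Of the 9 mismatch repair genes 7 were tested, and 0 passed as lower (21.5% of all genes) or higher (1.87%). At an unadjusted p-value under 0.05 from limma, 0 were lower in IVO (31.4% of all genes) and 2 were higher (5.56%). With median-ratio scaling 3 passed as higher, with quantile normalization 3, with the length trend removed 2 and with a minimum of 5 FPKM 1. The paralog Pms1 had 33.3 ± 11.3 FPKM in IVM and 31.2 ± 9.53 FPKM in IVO (adjusted p = 0.878 from limma). The median log2FC of the list was 0.063.

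A further list held other maternal-effect genes, among them those of the subcortical maternal complex of the oocyte cytoplasm. Of its 13 tested genes 4 fell and 0 rose in IVO, where 21.5% and 1.87% of all tested genes did, and all 4 were DEGs, namely Khdc3, Tle6, Nlrp5 and Padi6, with a list median of -0.38. Khdc3 had 347, 103 and 222 FPKM in the IVM pools against 13.9, 11.5 and 20.8 FPKM in the IVO pools (log2FC -3.65, adjusted p = 0.00261 from limma). Tle6 had 395 ± 96.1 FPKM in IVM and 65.5 ± 10.4 FPKM in IVO (SD, n = 3, log2FC -2.55, adjusted p = 0.00132). Whether nuclear and cytoplasmic maternal-effect genes differ in the share that fell was not tested.

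In the order of the levels, Trim28 was first in IVM and Npm2 second, and their values did not overlap. In IVO Npm2 was first and Trim28 second, again without overlap. Trim28 and Smarca4 overlapped in IVO, as did Npm2 and Smarca4 in IVM. Below the gap, the neighbours in the order Sebox, Ctcf, Hsf1, Yap1 and Trim24 overlapped in IVM, and Trim24 stood above Bnc1. In IVO, Ctcf overlapped Hsf1 and Yap1 overlapped Sebox, while Hsf1 stood above Yap1 and Sebox above Trim24, which overlapped Bnc1. Bnc1 stood above Pms2, the lowest, in both groups. Among the tested Ensembl genes, 98.2% had a lower mean in IVM than Trim28, 97.8% than Npm2 and 97.4% than Smarca4, against 37.7% for Pms2.

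Many of the genes had their highest and lowest values in the same pools. IVM replicate 2 was the lowest IVM sample in 7 of the 10 genes (42.9% of 13154 tested Ensembl genes), and IVM replicate 3 was the highest in 8 (40.2%). IVO replicate 3 was the lowest IVO sample in 6 of the 10 (39.95%) and the highest in the other 4 (32.48%). These 4 were Trim28, Smarca4, Bnc1 and Yap1, of which Trim28 and Smarca4 had their lowest IVM value in replicate 3, Bnc1 in replicate 1 and Yap1 in replicate 2. The coefficient of variation was larger in IVM than in IVO in 8 of the 10 genes (59.7% of the tested Ensembl genes), with a median of 28.9% in IVM and 18.5% in IVO. It fell from 36.1% to 2.34% in Yap1 and from 30.2% to 2.87% in Hsf1, and the exceptions were Trim28 (6.13% against 27.6%) and Pms2 (14.3% against 18.8%). These orders were looked at after the values were seen, and no test was made.

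**Figure D3:**
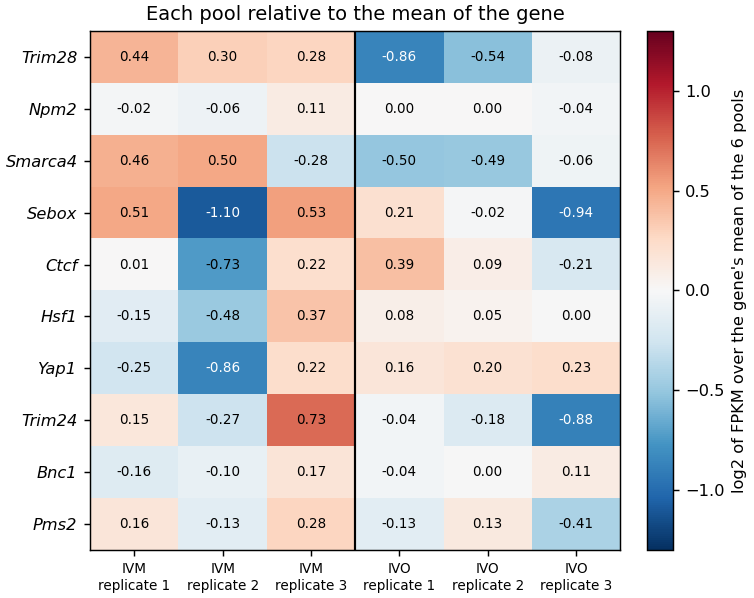
The log2 of the FPKM over the mean of the gene's 6 pools, with a row for each gene, a column for each pool and a line between the IVM and the IVO pools. The column of IVM replicate 2 is low for Sebox (-1.10), Yap1 (-0.86) and Ctcf (-0.73) but not for Trim28 (0.30) or Smarca4 (0.50), and Npm2 stays between -0.06 and 0.11.

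Scaling moved all 10 genes the same way. Median-ratio scaling divides each library by 1 factor, so a shared shift and a nearly kept order follow from the method. Median-ratio scaling raised each log2FC above its value with the FPKM as deposited, and quantile normalization raised it further. The order of the genes from Trim28 to Yap1 stayed nearly as it was, with Trim28 below and Yap1 above all others in each. Relative to the median of all tested genes (-0.30, with the assembled loci), Trim28 was lower by a log2 difference of -0.54 and Yap1 higher by 0.77. Against the median of the Ensembl genes (-0.18) the difference is larger for Trim28 and smaller for Yap1. The 95% interval lay between -1 and 1 for 5 genes, Npm2, Bnc1, Ctcf, Hsf1 and Pms2.

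**Figure D4:**
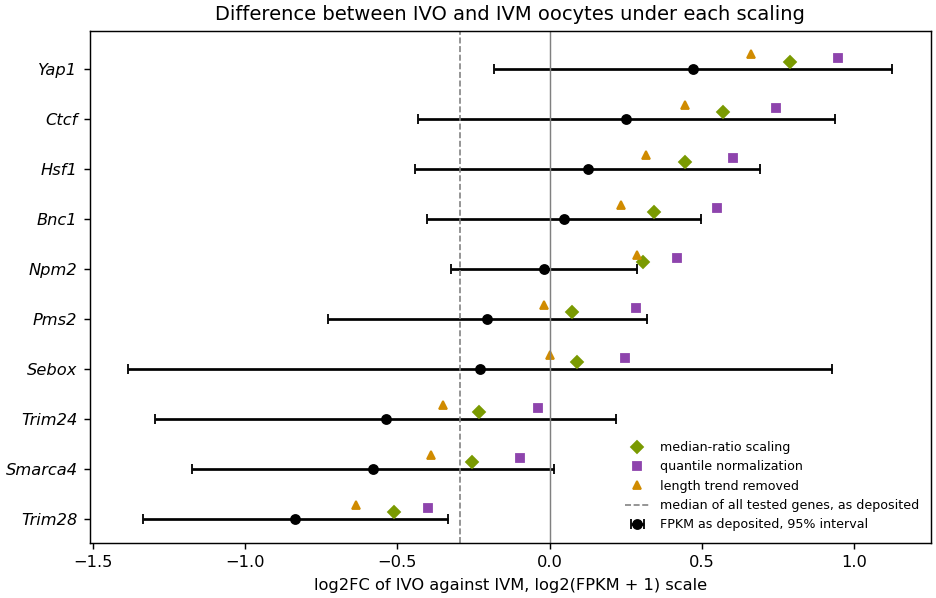
The log2FC of IVO against IVM for each gene as deposited, with its 95% interval from limma, and under 3 alternatives (symbols above each line); the dashed line is the median of all tested genes. The interval of Trim28 (-1.34 to -0.33) is the one that leaves out 0, and its symbols move toward 0, to -0.51 under median-ratio scaling and -0.40 after quantile normalization.

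The genes whose log2(FPKM + 1) ran most closely with Trim28 over the 6 samples were Itgb3bp, which encodes a centromere protein (Pearson's r = 0.995), Rpl28 of the large ribosomal subunit (0.994) and Dnajc22 (0.992). For Yap1 they were Ccar1 (0.995), the splicing factor gene Srsf10 (0.993) and Ndufa10 of respiratory complex I (0.992). Of the 6798 named Ensembl genes with a mean of at least 10 FPKM, 185 had an r above 0.95 with Trim28 and 91 with Yap1, so that these genes stand for many. The samples share the 2 groups and their libraries, and no p-value is given.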

How the data were processed

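RNA of 6 pools of 20 MII oocytes was amplified by SMART-Seq v4, a kit for full-length cDNA. After read filtering (SeqPrep, Sickle) and alignment by HISAT2 2.1.0 to GRCm39, the authors estimated gene abundance with RSEM 1.3.3, and the deposited values are FPKM per gene and sample. The deposited group means and transcript lengths are the authors' too. Groups and replicate numbers came from the sample titles. Since the values used here are FPKM, the authors' DESeq2 test on counts was replaced by limma 3.58.1 (R 4.3.3, eBayes with trend) on log2(FPKM + 1), group alone, two-sided, for 18818 genes with a mean of at least 1 FPKM, with Benjamini-Hochberg adjustment over all of them. P-values set the difference between the groups against the spread between pools, which eBayes draws toward that of other genes of similar level.

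Depth was inferred from genes with 1 transcript of 800 to 4000 bases, by the depth and fragment length at which low FPKM values fall on whole fragments. Between 70.3% and 74.6% of these values came within 0.15 of a whole number. Gene coordinates and exons are those of GENCODE M39.

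The genes and the lists were chosen with earlier results of these data known. All 10 genes, their paralogs, and up to 2 genes in each direction that passed in each list are named, and any other gene was named after its values were seen. One gene of this rule is not reported here. Results were recomputed with a pseudocount of 0.1, without a filter and with a minimum of 5 FPKM, median-ratio scaling, quantile normalization, eBayes without trend, the replicate block, with removal of each library's trend with transcript length (lowess, span 0.3), with Ensembl genes only and without each sample in turn.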

Additional observations from a re-analysis of the deposited data

How the results depend on the processing

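Of the 10 genes, 1 was lower in IVO as reported and 0 were lower without a filter on low values, with median-ratio scaling, with quantile normalization, with eBayes without trend, with the length trend removed and with the replicate block, alone or together with the length correction. The gene was Trim28, with adjusted p-values of 0.0691 without a filter, 0.0516 without trend, 0.0697 under the block, 0.106 with the length trend removed and 0.190 with both. With quantile normalization 1 gene, Yap1, was higher. Leaving out 1 sample gave 0 to 1 lower genes and 0 to 1 DEGs, the DEG being Trim28 without IVO replicate 3. The cause of these changes was not tested, except that no filter adds genes to the adjustment and leaving out a sample lowers the number of samples.

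The signs of Npm2, Sebox and Pms1 turned with median-ratio scaling (0.31, 0.090 and 0.23), quantile normalization (0.42, 0.25 and 0.38) and the length correction with or without the block (0.29, 0.0014 and 0.11), and that of Pms2 with the first (0.075) and second (0.28). No value that changed sign had passed the test. With each sample left out, the log2FC ran from -0.012 to 0.14 for Bnc1, -0.75 to 0.11 for Sebox, -0.022 to 0.44 for Ctcf, -0.065 to 0.35 for Hsf1, -0.054 to 0.032 for Npm2, -0.32 to 0.18 for Pms1, -0.17 to 0.28 for Smarca2, -0.0086 to 0.31 for Npm1, -0.13 to 0.37 for Npm3 and -0.15 to 0.23 for Bnc2. Of 271 values of the 17 paralogs and partner genes under the alternatives, 214 kept their direction and side of the threshold, 45 lost the call and 12 turned sign. Over all genes, the length correction gave 1815 lower and 1302 higher, 741 and 189 with the block too, the block alone left 118 higher, and Ensembl genes only gave 2530 lower.

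The labels do not say whether same-numbered samples belong together. The deviations of same-numbered samples from their group means correlated at -0.062, -0.018 and -0.11 across genes. Differently numbered samples correlated at -0.023 to 0.081. With 3 samples per group, such values cannot settle whether the samples were paired. Under the block the log2FC of Trim28 stayed at -0.84. The largest counting error, that of the pool with the fewest fragments, was 2.52% in Yap1 and 2.91% in Hsf1, both in IVM replicate 2. The spread between their IVO pools was 2.34% and 2.87%. These IVO pools held more fragments (3000 to 3119 for Yap1 and 1509 to 1599 for Hsf1), so their counting error was smaller. In Sebox the largest counting error was 4.65%, also in IVM replicate 2, and the IVM pools had a spread of 50.2%.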
